A study of Mus musculus with 8 samples.

Results

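The response to interleukin-4 (IL-4) was examined in mouse bone marrow-derived macrophages titled as keeping an intact Ern1 gene. It rests on the 4 libraries titled Ern1f/f, 2 without IL-4 and 2 with it, out of 8 in the series. The libraries were grouped by their titles and not by any measured value. This comparison itself was chosen with earlier results of these data known. Ern1 encodes IRE1α, a stress sensor of the endoplasmic reticulum. In Ern1f/f mice both Ern1 alleles carry loxP sites, and without Cre recombinase the gene is left whole. The other 4 libraries are titled Ern1f/fLyz2-Cre, cells that carry the same floxed alleles together with Cre expressed from the Lyz2 locus of myeloid cells. They serve here to estimate the spread and to test whether the response differed between genotypes. All mice are labelled as C57BL/6J and 8 weeks old. Their marrow was grown for 7 days in medium derived from L929 cells, a source of the macrophage growth factor CSF-1, and IL-4 was given for 24 hours at 20 ng/ml. Each group has 2 libraries, numbered 1 and 2. The labels do not say whether these are separate mice, cultures or pools, so p-values measure only the spread between these libraries, which may be technical. The genotype field of the labels goes against the title in 4 of the 8 libraries, and groups follow the titles. Ern1, the targeted gene, had 11.5 and 9.55 FPKM in control cells and 10.2 and 9.11 FPKM with IL-4 in the libraries titled Ern1f/f. In those titled Ern1f/fLyz2-Cre it had 14.3 and 12.7 FPKM in control cells and 7.43 and 10.98 FPKM with IL-4. The genotypes overlapped, so this level per gene, which does not resolve single exons, does not check the genotype labels. Lyz2, the locus that carries Cre, had 18114 and 17415 FPKM in control cells and 8902 and 11961 FPKM with IL-4 in the libraries titled Ern1f/f, and 10949 and 2171 FPKM in control cells and 5780 and 1572 FPKM with IL-4 in those titled Ern1f/fLyz2-Cre. At each treatment and replicate number the library titled Cre had the lower Lyz2 level.

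IL-4 is the type 2 cytokine that drives alternative activation of macrophages. It binds a receptor made of IL-4Rα and the common gamma chain, whose Janus kinases phosphorylate the transcription factor STAT6. STAT6 dimers enter the nucleus and bind palindromic DNA elements, inducing enzymes of arginine metabolism, lectins, secreted chitinase-like and resistin-like proteins, chemokines, and the SOCS proteins that feed back on the receptor. In tissues such cells are known for roles in parasite immunity, repair and the handling of lipids and iron.

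Expression is given as FPKM, fragments per kilobase of transcript, scaled to library size, a level per length that can be compared between genes. The depth implied by the deposited confidence intervals was 21.5 M to 37.9 M fragments a library. Differences are on the log2(FPKM + 1) scale, IL-4 minus control, which understates the change of genes with low values. Values below are given for replicate 1 first and replicate 2 second. The 2 replicate numbers stood apart in all groups: the first principal component, 59.0% of the variance, separated the 4 libraries numbered 1 from the 4 numbered 2, and the second, 23.3%, separated IL-4 from control. Markers of fibroblasts summed to 241 and 112 FPKM in control and IL-4 cells of replicate 1 against 10.7 and 10.7 FPKM in replicate 2. Those of T or NK cells, mast cells or basophils, and erythroid cells summed to at most 3.41 FPKM in each of the 4 libraries. Of 10 macrophage markers, 9 were measured and all 9 were expressed. With IL-4, 7 of the 9 were lower and 1 was higher in both replicate numbers, against 37.1% and 24.1% of all genes tested. Of the 9 markers 0 passed the test, and their median log2 difference was -0.30. They summed to 21900 and 20210 FPKM in control cells and 11780 and 14620 FPKM with IL-4, most of it Lyz2, and the part of this shift in the results below was not tested. The 1 higher marker was Csf1r, the receptor for CSF-1, at 769.6 and 429 FPKM in control cells and 869.9 and 509 FPKM with IL-4. Neutrophil markers summed to 6.43 to 40.2 FPKM, and 2 of the 9 were expressed highly enough to be tested.

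Without the replicate number in the model, 0 of the 10934 genes tested passed an adjusted p of 0.05 by limma (percent called 0). The smallest adjusted p was 0.0639, and 673 genes had an unadjusted p under 0.05 where chance gives 546.7. With the replicate number as a block, 232 genes passed (2.12% of those tested): 138 were higher with IL-4 (1.26%) and 94 were lower (0.86%). A gene is said here to have risen or fallen only where it passed the blocked fit, and each adjusted p and 95% confidence interval comes from it. All 138 higher genes had the same sign in both replicate numbers, and in 131 of them both IL-4 libraries lay above both controls. Of the 94 lower genes 75 had no overlap. Among all genes tested 1385 were higher and 1911 lower without overlap.

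The response was uneven in its 2 directions. The higher genes had a median log2 difference of 1.17, 95 of the 138 reached 1, 23 reached 2, and 9 reached 3. The lower genes had a median of -0.94; 36 of the 94 were at -1 or below and 0 at -2. Over all genes tested the median was -0.04. The median control level of the higher genes was 6.97 FPKM and that of the lower genes 22.4 FPKM. Together the higher genes took up 1.19% of all FPKM in control cells and 2.90% with IL-4 in replicate 1, and 1.04% and 2.31% in replicate 2. The lower genes went from 0.883% to 0.437% and from 1.15% to 0.662%. These counts depended on single libraries. Leaving 1 library out at a time gave between 6 and 277 called genes: 6 and 17 without control replicates 1 and 2, and 21 and 103 without IL-4 replicates 1 and 2. The count was 101 and 75 without the Ern1f/fLyz2-Cre IL-4 replicates. In all 8 such fits 5 genes were called: Arg1, Apol7c, Il4i1, Pdcd1lg2 and Cish. Of the 232 genes 20 were called in at least 6 of the 8 fits.

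**Figure D1:**
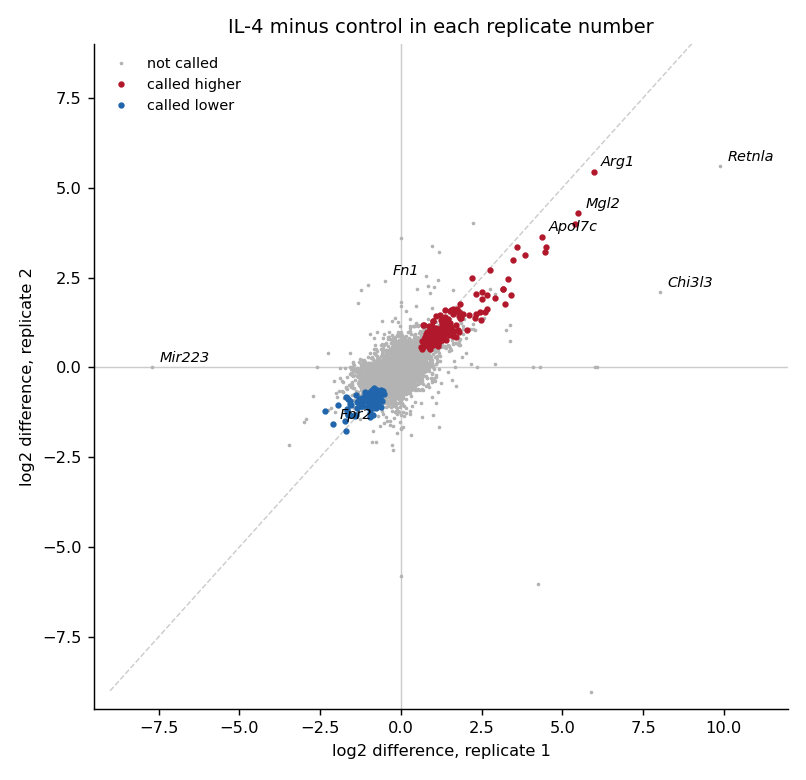
Each point is 1 of the 10934 genes tested, with its IL-4 minus control difference on the log2(FPKM + 1) scale in replicate 1 (horizontal axis) and replicate 2 (vertical axis). Red and blue points are the 138 higher and 94 lower genes called with the replicate block, the dashed line marks equal differences, and Retnla and Chi3l3 lie far from it on the side of replicate 1.

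Across the genes tested the IL-4 difference of replicate 1 and that of replicate 2 correlated at Pearson's r = 0.477 and Spearman's rho = 0.399, a description across genes, which are not independent; the 2 differences share no library. A difference of at least 1 log2 unit in both replicate numbers was met by 97 higher and 32 lower genes. In replicate 1 221 genes were higher and 253 lower by that much, and in replicate 2 148 and 105. These counts include the genes that met it in both numbers. The higher genes moved more in replicate 1 in 106 of 138 cases, and the lower genes in 61 of 94. The 6 genes at least 1 unit up in one number and at least 1 down in the other were Cyp1b1, the histone genes Hist1h4a and Hist1h4d, the small RNA genes Mir546 and Snora70, and the pseudogene Rpl34-ps1. Cyp1b1, a cytochrome P450 enzyme, went from 9.62 to 4.24 FPKM in replicate 1 and from 3.600 to 21.6 FPKM in replicate 2. The values of Mir546 and Snora70 rest on at most 2 fragments in each of the 4 libraries.

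On the receptor side of the pathway 1 of 15 genes tested passed, where 2.12% of all genes tested were called. By comparison 3 genes of the SOCS family of inhibitors rose. Il4ra, the IL-4 receptor alpha chain, had 25.3 and 41.1 FPKM in control cells and 16.5 and 24.9 FPKM with IL-4. Both IL-4 libraries lay below both controls, and the gene missed the threshold (log2 difference -0.64, interval -0.95 to -0.34, adjusted p = 0.0634). Stat6 stood at 60.2 and 57.9 FPKM in control cells and 57.3 and 47.2 FPKM with IL-4, with an adjusted p of 0.512. Il2rg, the common gamma chain, and Jak1, the kinase bound to IL-4Rα, had log2 differences of 0.14 and 0.06. Jak2, a kinase used by many cytokine receptors, was the only 1 of the 15 tested receptor, Janus kinase and STAT genes that passed, at 7.74 and 8.604 FPKM in control cells and 22.9 and 23.3 FPKM with IL-4 (log2 difference 1.396, adjusted p = 0.0238). The median of the 15 was -0.05, and 8 were lower and 4 higher in both replicate numbers, against 37.1% and 24.1% of all genes tested.

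Of the 8 SOCS family genes 3 rose, 0 fell and 5 did not pass, where 2.12% of all genes tested were called. Cish, a feedback inhibitor of cytokine receptors that signal through STAT5, lies on chromosome 9 from 107296688 to 107301961 (mm10). It stood at 0.454 and 1.05 FPKM in control cells and 16.6 and 19.9 FPKM with IL-4, 36.5 and 18.96 times the control level. The control libraries were at about 1 FPKM or below, and both IL-4 libraries were above 16 FPKM (log2 difference 3.47, interval 3.17 to 3.77, adjusted p = 0.000511). Socs1, which inhibits Janus kinases directly, had 1.95 and 7.36 FPKM in control cells and 26.6 and 27.5 FPKM with IL-4 (log2 difference 2.496, adjusted p = 0.0336). Its 2 IL-4 libraries were nearly level while its controls differed, so the difference was 3.22 in replicate 1 and 1.77 in replicate 2. Socs2, an inhibitor of growth hormone signalling, had 1.97 and 0.246 FPKM in control cells and 6.88 and 1.54 FPKM with IL-4. The rise of Socs2 was seen within each number (1.41 and 1.03, adjusted p = 0.01995), but the control of replicate 1 lay above the IL-4 library of replicate 2. Socs3, which inhibits receptors of the IL-6 family, was lower within each number, at 2.47 and 12.8 FPKM in control cells and 1.61 and 6.21 FPKM with IL-4, and did not pass (adjusted p = 0.103).

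Arginine metabolism held the largest called difference of the data. In this list of 16 tested genes 3 rose and 1 fell, where 2.12% of all genes tested were called. Arg1, arginase 1, turns arginine into ornithine and urea and lies on chromosome 10 from 24915206 to 24927470. Its level was 0.0444 and 0.685 FPKM in control cells and 64.9 and 72.3 FPKM with IL-4, from about 2 and 32 fragments to 3050 and 3019. In the control libraries it ranked 14034 and 10685 among all genes by FPKM, and with IL-4 1093 and 930 (log2 difference 5.71, interval 5.17 to 6.26, adjusted p = 0.000511). Slc7a2, a transporter of arginine into the cell, had 8.56 and 12.9 FPKM in control cells and 94.7 and 75.5 FPKM with IL-4, which is 11.1 and 5.85 times higher (log2 difference 2.89, interval 2.32 to 3.47, adjusted p = 0.00653). Il4i1, a secreted amino acid oxidase first cloned as an IL-4 induced gene, had 1.07 and 1.26 FPKM in control cells and 45.4 and 21.9 FPKM with IL-4 (log2 difference 3.91, interval 3.29 to 4.53, adjusted p = 0.00449). For each of these genes the 2 groups were far apart and did not overlap. Smox, spermine oxidase, was the only gene of this list to fall, with 16.1 and 26.1 FPKM in control cells and 10.98 and 15.3 FPKM with IL-4 (log2 difference -0.62, adjusted p = 0.04397), and it was called in 0 of the 8 fits that left out 1 library. The other 12 of 16 tested members did not pass. Among them Arg2, the mitochondrial arginase, differed by -0.21 on the log2 scale, Nos2, the nitric oxide synthase that competes for arginine, by 0.32, and Odc1, which converts ornithine to putrescine, by 0.47.

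**Figure D2:**
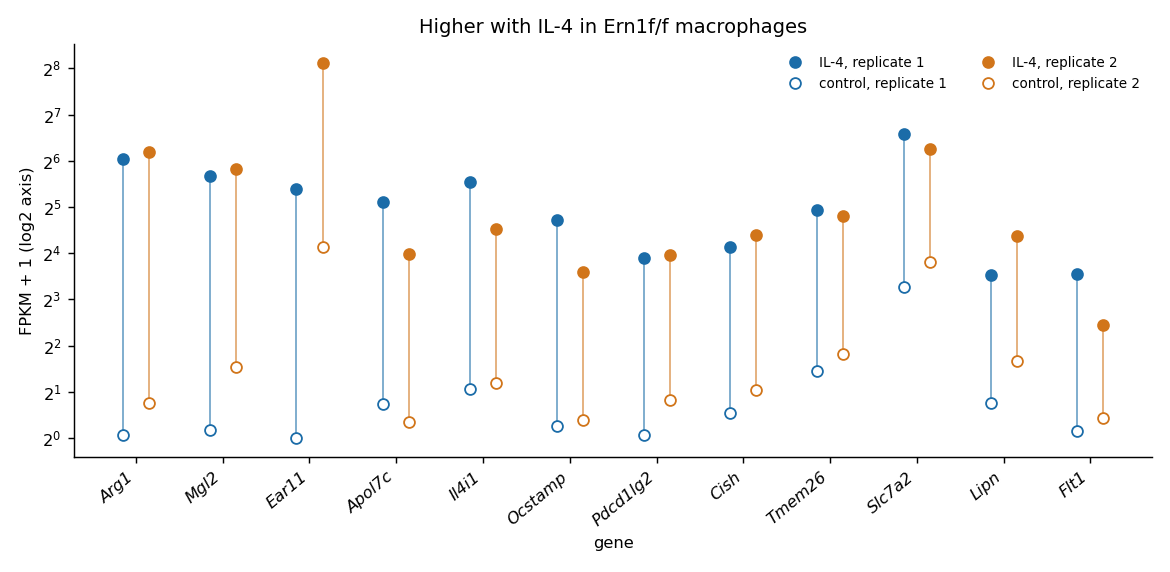
Levels as FPKM + 1 on a log2 axis of the 12 called genes with the largest rise, a mean FPKM of 1 or more and groups that do not overlap; open circles are control and filled circles IL-4 libraries, blue for replicate 1 and orange for replicate 2. Apol7c, Cish, Pdcd1lg2 and Ocstamp were near or under 1 FPKM in both controls, while the control of Ear11 differed from 0 to 16.6 FPKM between the replicate numbers.

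Transcription regulators tied to alternative activation made up another group: 5 of 18 tested rose, 0 fell and 13 did not pass. The share called among all genes tested was 2.12%. The median of the 18 was 0.82 (0.77 in replicate 1, 0.45 in replicate 2). Irf4, a factor known to be needed for alternative activation, had 0.383 and 0.504 FPKM in control cells and 11.3 and 5.88 FPKM with IL-4 (log2 difference 2.67, adjusted p = 0.00653). Nfil3, a basic leucine zipper repressor, had 3.72 and 6.73 FPKM in control cells and 34.3 and 28.5 FPKM with IL-4 (log2 difference 2.42, adjusted p = 0.0101). Egr2, a zinc finger factor, had 13.8 and 14.4 FPKM in control cells and 89.3 and 44.1 FPKM with IL-4 (log2 difference 2.08, adjusted p = 0.0307). In all of these the control libraries lay within a factor of about 2 of each other and below both IL-4 libraries. Bhlhe40, a basic helix-loop-helix factor, went from 30.00 and 19.3 to 80.8 and 50.4 FPKM, and the fatty acid receptor Pparg from 30.4 and 11.6 to 58.7 and 26.9 FPKM (adjusted p = 0.00821 and 0.0319). Pparg roughly doubled within each number, yet its groups overlapped, since the control of replicate 1 exceeded the IL-4 library of replicate 2. Myc went from 7.23 to 32.1 FPKM in replicate 1 and from 11.4 to 15.3 FPKM in replicate 2, and Klf4 from 2.100 to 11.5 and from 3.73 to 7.35 FPKM. Neither passed (adjusted p = 0.163 and 0.06897). Maf and Cebpb, factors of macrophage identity and inflammation, differed by -0.795 and -0.02 on the log2 scale without passing.

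Both spacings of the palindrome that STAT dimers bind were counted in promoters, with TTC, any 4 bases and GAA as the form favoured by STAT6, and TTC, any 3 bases and GAA as that of other STAT factors. A promoter here is the 300 bases from 250 before to 50 after the gene's start in RefSeq (GRCm38.p6), and 8790 of the 10934 genes tested could be matched to one. Since both motifs are palindromes, each match lies on both strands, and a promoter may hold both forms. The form with 4 bases was found in 12 of 108 promoters of higher genes (11.1%), 4 of 75 of lower genes (5.33%) and 479 of 8790 of all genes (5.45%). The form with 3 bases was found in 5 (4.63%), 3 (4%) and 601 (6.84%). Such a match is a description of the letters in the window, with no measurement of binding. The promoters of the 5 higher genes with the largest differences that hold the form with 4 bases are shown, with that of Cish, chosen after its values were seen, which holds the form with 3 bases 2 times at and just after its start. All read 5′ to 3′ on the gene's strand, with the matching bases in capitals.
Apol7c, chr15:77533266-77533565, minus strand: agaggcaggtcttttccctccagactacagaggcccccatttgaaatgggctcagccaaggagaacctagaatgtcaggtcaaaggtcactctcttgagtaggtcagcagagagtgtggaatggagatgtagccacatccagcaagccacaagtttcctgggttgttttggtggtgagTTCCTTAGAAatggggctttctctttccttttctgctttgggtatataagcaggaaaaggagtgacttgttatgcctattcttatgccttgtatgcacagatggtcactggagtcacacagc
Pdcd1lg2, chr19:29410669-29410968, plus strand: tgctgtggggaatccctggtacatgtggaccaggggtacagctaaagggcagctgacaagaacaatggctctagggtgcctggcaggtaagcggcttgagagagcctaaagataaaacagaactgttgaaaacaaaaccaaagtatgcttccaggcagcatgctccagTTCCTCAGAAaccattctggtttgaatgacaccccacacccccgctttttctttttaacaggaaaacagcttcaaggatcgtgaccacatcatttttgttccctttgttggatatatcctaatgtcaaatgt
Tmem26, chr10:68723496-68723795, plus strand: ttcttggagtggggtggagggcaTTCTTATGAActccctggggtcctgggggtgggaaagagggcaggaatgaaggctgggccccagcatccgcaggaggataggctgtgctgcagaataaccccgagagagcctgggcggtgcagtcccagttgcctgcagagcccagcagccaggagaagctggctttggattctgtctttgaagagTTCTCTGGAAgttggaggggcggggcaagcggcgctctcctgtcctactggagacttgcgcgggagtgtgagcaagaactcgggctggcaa
Plekhf1, chr7:38227945-38228244, minus strand: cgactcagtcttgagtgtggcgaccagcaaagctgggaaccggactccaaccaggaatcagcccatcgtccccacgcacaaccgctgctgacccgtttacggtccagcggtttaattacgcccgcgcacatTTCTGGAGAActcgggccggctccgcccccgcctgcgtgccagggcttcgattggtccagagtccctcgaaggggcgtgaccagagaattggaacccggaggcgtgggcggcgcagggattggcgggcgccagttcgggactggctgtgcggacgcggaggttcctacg
Itgax, chr7:128129300-128129599, plus strand: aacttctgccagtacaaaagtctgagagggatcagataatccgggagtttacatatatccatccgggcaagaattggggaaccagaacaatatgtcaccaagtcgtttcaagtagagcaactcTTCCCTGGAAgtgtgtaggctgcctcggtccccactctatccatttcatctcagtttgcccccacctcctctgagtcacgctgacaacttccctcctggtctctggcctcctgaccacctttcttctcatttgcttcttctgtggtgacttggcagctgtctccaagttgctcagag
Cish, chr9:107296409-107296708, plus strand: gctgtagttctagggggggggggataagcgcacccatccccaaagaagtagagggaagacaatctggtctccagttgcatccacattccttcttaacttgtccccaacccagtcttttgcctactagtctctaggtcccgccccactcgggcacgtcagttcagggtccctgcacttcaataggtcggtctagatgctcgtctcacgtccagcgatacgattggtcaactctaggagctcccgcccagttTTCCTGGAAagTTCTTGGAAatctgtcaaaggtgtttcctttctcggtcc

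The matches begin 72 bases before the start of Apol7c, 82 before that of Pdcd1lg2, 227 and 41 before that of Tmem26, 119 before that of Plekhf1 and 127 before that of Itgax. Apol7c, an apolipoprotein L family gene, rose from 0.665 to 33.2 FPKM in replicate 1 and from 0.265 to 14.8 FPKM in replicate 2. These are ratios of 49.99 and 55.7 (log2 difference 4.001, interval 3.58 to 4.42, adjusted p = 0.000612). Tmem26, a membrane protein gene, had 1.71 and 2.53 FPKM in control cells and 29.4 and 26.9 FPKM with IL-4 (log2 difference 3.24, interval 2.77 to 3.697, adjusted p = 0.00273). Plekhf1, which encodes an endosomal and lysosomal adaptor, had 2.91 and 2.05 FPKM in control cells and 23.7 and 11.3 FPKM with IL-4 (log2 difference 2.34, adjusted p = 0.00449). No overlap between groups was seen for any of these genes.

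Genes that were under 1 FPKM in both controls and at 5 FPKM or more in both IL-4 libraries numbered 6, and 0 showed the reverse. They were Arg1, Apol7c, Irf4, Pdcd1lg2, Ocstamp and Rbp4. Pdcd1lg2, the inhibitory ligand PD-L2, had 0.0427 and 0.771 FPKM in control cells and 13.9 and 14.6 FPKM with IL-4 (log2 difference 3.49, interval 3.01 to 3.97, adjusted p = 0.00256). Its paralog Cd274 (PD-L1), already expressed in control cells, had 22.4 and 66.2 FPKM in control cells and 51.2 and 107 FPKM with IL-4 (log2 difference 0.92, adjusted p = 0.0308), with the control of replicate 2 above the IL-4 library of replicate 1. Where 2.12% of all genes tested were called, these were the 2 of 11 tested costimulatory and coinhibitory genes that rose. The others ranged down to -0.59 for Icosl, and Cd80 and Cd86, ligands of CD28, differed by -0.25 and 0.05 on the log2 scale without passing. Rbp4, a retinol carrier, had 0.3302 and 0.348 FPKM in control cells and 7.96 and 5.17 FPKM with IL-4 and narrowly missed the threshold (adjusted p = 0.0511).

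Class II antigen presentation genes were all higher in both replicate numbers, 9 of 9 tested, against 24.1% of all genes tested. Of these 9 genes 2 passed, where 2.12% of all genes tested were called, and the median of the 9 was 0.80 on the log2 scale. H2-DMa and H2-DMb1, the chains of the peptide-loading molecule H2-DM, had 27.9 and 36.3 FPKM in control cells and 64.5 and 69.6 FPKM with IL-4 and 59.8 and 63.9 FPKM in control cells and 126 and 126 FPKM with IL-4 respectively (adjusted p = 0.0307 and 0.0175). Cd74, the invariant chain, was the most abundant of the 9 at 1903 and 2615 FPKM in control cells and 4529 and 3912 FPKM with IL-4 (adjusted p = 0.0949). H2-Aa, a chain of the presenting molecule itself, had 607 and 899 FPKM in control cells and 1024 and 1465 FPKM with IL-4 (adjusted p = 0.203), and Ciita, the transactivator of class II genes, had 5.99 and 5.53 FPKM in control cells and 13.4 and 16.9 FPKM with IL-4 (adjusted p = 0.0871). In each of the last 3 genes both IL-4 libraries lay above both controls.

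Lectins and other scavenger receptors split by gene: 5 of 17 tested rose, 0 fell and 12 did not pass. The share called among all genes tested was 2.12%, and the list median was 0.01 on the log2 scale. Mrc1, the mannose receptor CD206, had 40.8 and 29.4 FPKM in control cells and 208 and 124 FPKM with IL-4 (log2 difference 2.18, adjusted p = 0.00449). Mgl2 and Clec10a are neighbouring paralogs that encode galactose-binding lectins (CD301), and gene-level values may not separate their reads fully. Mgl2 had 0.126 and 1.88 FPKM in control cells and 49.8 and 55.6 FPKM with IL-4 and Clec10a 2.31 and 1.72 FPKM in control cells and 9.19 and 6.59 FPKM with IL-4. Their ratios were 29.6 and 3.82 in replicate 2, and their adjusted p-values 0.0151 and 0.00721. Clec7a, the fungal beta-glucan receptor Dectin-1, was already abundant and had 375 and 162 FPKM in control cells and 752 and 396 FPKM with IL-4 (adjusted p = 0.0121). Clec4b1, a C-type lectin receptor, had 5.95 and 4.67 FPKM in control cells and 13.9 and 14.2 FPKM with IL-4 (adjusted p = 0.0109). On the other side, Clec4d, a receptor for mycobacterial glycolipid, had 429.6 and 344 FPKM in control cells and 88.9 and 149.9 FPKM with IL-4 and narrowly missed the threshold (log2 difference -1.73, adjusted p = 0.0552). Its relatives Clec4e and Clec4n had log2 differences of -0.97 and -0.89, neither past the threshold.

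Of 18 secreted effectors of alternative activation tested 2 rose, 0 fell and 16 did not pass, where 2.12% of all genes tested were called. In both replicate numbers 8 were higher and 1 was lower by at least 1 log2 unit, against 0.887% and 0.293% of all genes tested. Summed over the list, the level went from 604 to 2633 FPKM in replicate 1 and from 1672 to 6113 FPKM in replicate 2. Ear11, an eosinophil-associated ribonuclease, was listed at 0 and 16.6 FPKM in control cells and at 40.95 and 278 FPKM with IL-4 (adjusted p = 0.0334). Ear2, a close paralog, had 6.15 and 12.8 FPKM in control cells and 32.8 and 223 FPKM with IL-4 (adjusted p = 0.0688). Reads of the 2 genes may not be fully separable, and both also mark eosinophils. The list of 6 eosinophil markers, which holds Ear2, summed to 9.91 and 17.9 FPKM in control cells and 45.9 and 232 FPKM with IL-4. Ear2 itself made up most of each sum, and the part of eosinophils in these results was not tested. Igf1, insulin-like growth factor 1, had 129 and 109.7 FPKM in control cells and 345 and 249.6 FPKM with IL-4 (log2 difference 1.29, adjusted p = 0.0106), with the groups well separated.

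Retnla and Chi3l3, which encode the resistin-like protein RELMα and the chitinase-like protein Ym1, passed neither fit. Retnla reached rank 62 and 133 among all genes with IL-4. Its control level rested on about 4 fragments in replicate 1 and 168 in replicate 2, and the difference was 9.89 and 5.598 on the log2 scale (interval 4.15 to 11.34). Chi3l3 was at rank 10725 in the control library of replicate 1 and already at rank 90 in that of replicate 2, and its differences were 8.02 and 2.097. Chi3l3 and its paralog Chi3l4 share sequence. The chemokines of the group behaved alike in direction. Ccl22, a ligand of CCR4, had 0.104 and 0.793 FPKM in control cells and 10.6 and 3.04 FPKM with IL-4 (adjusted p = 0.0884). Ccl24, an eosinophil attractant, had 0.2101 and 0.277 FPKM in control cells and 1.69 and 5.87 FPKM with IL-4 (adjusted p = 0.0683). Vegfa, the endothelial growth factor, lay lower in both IL-4 libraries, with 22.8 and 9.498 FPKM in control cells and 7.68 and 3.84 FPKM with IL-4 (adjusted p = 0.0504), and its receptor gene Flt1 rose from 0.103 and 0.358 to 10.7 and 4.47 FPKM (adjusted p = 0.0205).

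Genes of macrophage fusion rose in part. Multinucleated giant cells form when macrophages fuse under IL-4, and osteoclasts form by a related route. Of 19 tested genes of the list 4 rose, 0 fell and 15 did not pass, where 2.12% of all genes tested were called. The list median was 0.15. Ocstamp and Dcstamp, membrane proteins needed for fusion, had 0.191 and 0.309 FPKM in control cells and 25.5 and 11.1 FPKM with IL-4 and 2.44 and 3.79 FPKM in control cells and 16.2 and 12.3 FPKM with IL-4 respectively (adjusted p = 0.00653 and 0.0261). Atp6v0d2, a proton pump subunit also needed for fusion, had 215 and 153 FPKM in control cells and 374 and 301 FPKM with IL-4 (adjusted p = 0.0308). Mmp12, macrophage elastase, had 129 and 365 FPKM in control cells and 373 and 861 FPKM with IL-4 (adjusted p = 0.0257). Cdh1, E-cadherin, stayed low at 0.0194 and 0.08302 FPKM in control cells and 1.19 and 1.58 FPKM with IL-4 and did not pass (adjusted p = 0.06504). The osteoclast enzymes Ctsk and Acp5 had log2 differences of 0.15 and 0.03, and the osteoclast markers Calcr and Oscar were listed at 0 in all 4 libraries.

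Of 16 integrin, chemokine and chemoattractant receptors tested 1 rose, 1 fell and 14 did not pass, where 2.12% of all genes tested were called. In both replicate numbers 6 were higher and 9 lower, against 24.1% and 37.1% of all genes tested. Itgax, the integrin chain CD11c, had 58.1 and 67.01 FPKM in control cells and 333 and 254 FPKM with IL-4, 5.73 and 3.79 times the control level (adjusted p = 0.0109), with no overlap. Fpr2, a receptor for formylated bacterial peptides, had 9.99 and 83.6 FPKM in control cells and 1.55 and 27.4 FPKM with IL-4 (log2 difference -1.84, adjusted p = 0.0162). It fell to 15.5% and 32.8% of the control level, although replicate 2 lay above replicate 1 in both groups. Its relative Fpr1 had 25.7 and 141 FPKM in control cells and 2.34 and 48.4 FPKM with IL-4 and did not pass (adjusted p = 0.0683). Cx3cr1, the fractalkine receptor, went from 13.8 to 1.23 FPKM in replicate 1 and from 1.26 to 0.296 in replicate 2 (adjusted p = 0.193). The receptors Ccr1 and Ccr2 were higher within each number, with log2 differences of 1.54 and 1.198, and did not pass.

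**Figure D3:**
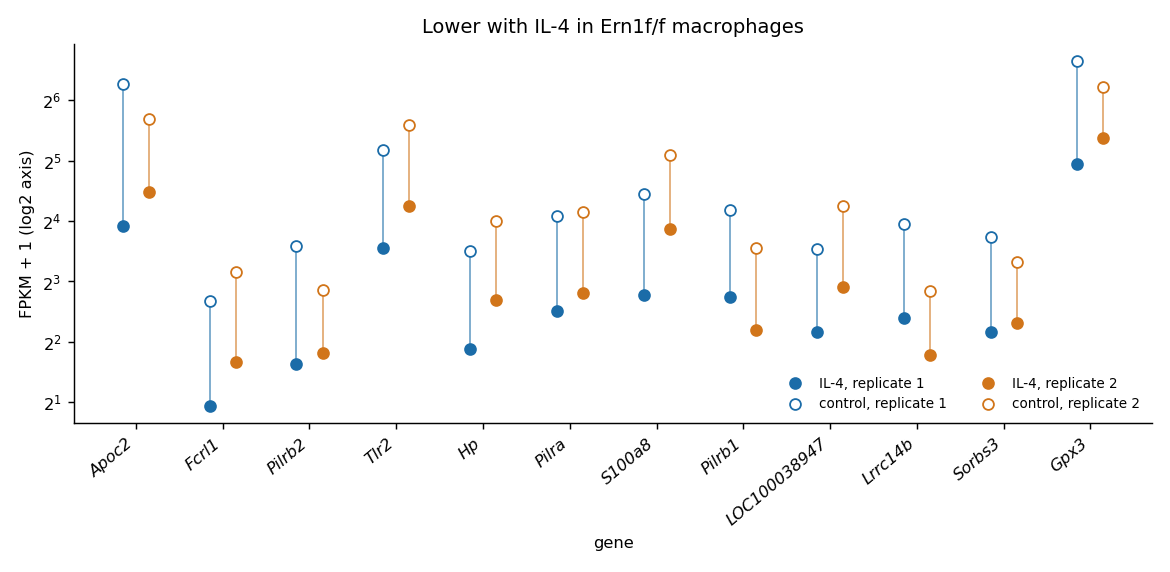
Levels as FPKM + 1 on a log2 axis of the 12 called genes with the largest fall, a mean FPKM of 1 or more and groups that do not overlap; open circles are control and filled circles IL-4 libraries, blue for replicate 1 and orange for replicate 2. In all 12 genes both IL-4 libraries lie below both controls, and no gene has a mean fall of 2 log2 units over the 2 replicate numbers.

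Genes that sense bacterial products were among those that fell. Of 21 tested pattern recognition receptors and adaptors 2 fell, 0 rose and 19 did not pass, where 2.12% of all genes tested were called. The list median was -0.23. Tlr2, the receptor for bacterial lipopeptides, had 35.04 and 47.3 FPKM in control cells and 10.7 and 18.1 FPKM with IL-4 (log2 difference -1.48, adjusted p = 0.0258). Irak3, an inhibitory kinase of Toll-like receptor signalling, had 13.5 and 52.97 FPKM in control cells and 5.35 and 26.6 FPKM with IL-4 (adjusted p = 0.01801). Irak3 fell within each number, while the IL-4 library of replicate 2 lay above the control of replicate 1. Cd14, the lipopolysaccharide coreceptor, had 216 and 113 FPKM in control cells and 47.8 and 50.9 FPKM with IL-4 and missed the threshold (log2 difference -1.64, adjusted p = 0.0736). Tlr4, the lipopolysaccharide receptor itself, differed by 0.61 on the log2 scale and did not pass.

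Of 19 paired myeloid receptors tested 3 fell, 0 rose and 16 did not pass, where 2.12% of all genes tested were called. The 3 that fell belong to 1 locus family. Pilra is the inhibitory and Pilrb1 and Pilrb2 the activating members of the PILR pair. They had 15.99 and 16.8 FPKM in control cells and 4.69 and 6.03 FPKM with IL-4, 17.1 and 10.7 FPKM in control cells and 5.69 and 3.56 FPKM with IL-4 and 10.99 and 6.26 FPKM in control cells and 2.11 and 2.54 FPKM with IL-4, in that order. Both groups were clearly apart for each gene (adjusted p = 0.0109, 0.01695 and 0.0357). Pilrb1 and Pilrb2 are near copies, so their reads may be split between them. Fcrl1, a member of the Fc receptor-like family best known from B cells, fell from 5.38 and 7.94 to 0.911 and 2.16 FPKM (adjusted p = 0.007096). B cell markers summed to 13.6 and 19.2 FPKM in control cells and 14.2 and 12.5 FPKM with IL-4, and their part in this result was not tested. None of 7 Fc receptors tested passed; Fcgr2b, the inhibitory IgG receptor, had 67.2 and 103 FPKM in control cells and 246 and 244 FPKM with IL-4 (adjusted p = 0.0575) and Fcgr1, the high-affinity IgG receptor, a log2 difference of -1.01. For that list 0 genes passed with the block as well as without it.

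Of 14 iron handling genes tested 3 fell, 1 rose and 10 did not pass, where 2.12% of all genes tested were called. The list median was -0.40 against -0.04 for all genes. Tfrc, the transferrin receptor that takes up iron, had 24.2 and 80.3 FPKM in control cells and 77.7 and 235 FPKM with IL-4, with like ratios in both numbers (3.21 and 2.92, adjusted p = 0.0109). Its groups overlapped, because the control of replicate 2 lay slightly above the IL-4 library of replicate 1. Slc11a1, the iron transporter NRAMP1 of the phagosome, had 258 and 252 FPKM in control cells and 110.1 and 119.7 FPKM with IL-4 (log2 difference -1.15, adjusted p = 0.0151). Hp, haptoglobin, which binds free hemoglobin, had 10.4 and 15.05 FPKM in control cells and 2.695 and 5.49 FPKM with IL-4 (adjusted p = 0.0221), and Slc25a37, the mitochondrial iron importer, 7.77 and 8.66 FPKM in control cells and 4.07 and 4.86 FPKM with IL-4 (adjusted p = 0.0311). The exporter gene Slc40a1 had 35.03 and 20.7 FPKM in control cells and 7.69 and 8.13 FPKM with IL-4 and did not pass (adjusted p = 0.0811). Fth1, the heavy chain of the iron store ferritin and one of the most abundant transcripts, had 27340.0 and 29412 FPKM in control cells and 18801 and 20115 FPKM with IL-4; its ratio was near 0.69 and 0.68, and it missed the threshold (adjusted p = 0.0639).

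In lipid metabolism each list held 1 called gene or 0, where 2.12% of all genes tested were called. Apoc2, the activator of lipoprotein lipase, had 76.03 and 50.6 FPKM in control cells and 14.1 and 21.2 FPKM with IL-4 (log2 difference -1.78, adjusted p = 0.0318) and was the 1 called of 18 tested apolipoprotein and cholesterol efflux genes. Apoe, apolipoprotein E, had 19709 and 4904 FPKM in control cells and 14199 and 2558 FPKM with IL-4 (adjusted p = 0.0913). Of 24 cholesterol synthesis genes 19 were higher in both replicate numbers, against 24.1% of all genes tested, with a median of 0.37. The 1 that passed was Dhcr7, the last enzyme of the pathway, with 14.2 and 14.7 FPKM in control cells and 24.5 and 25.8 FPKM with IL-4 (adjusted p = 0.0285). None of 21 fatty acid oxidation genes passed, and their median was -0.0021. Their log2 differences ran from -0.57 for Fabp5, a fatty acid carrier, to 0.41 for Hadhb and Etfb. Lipn, an acid lipase gene, rose from 0.696 and 2.16 to 10.6 and 19.7 FPKM (adjusted p = 0.00449).

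Of 15 eicosanoid synthesis genes tested 3 rose, 0 fell and 12 did not pass, where 2.12% of all genes tested were called. The list median was 0.08. Pla2g4a, cytosolic phospholipase A2, frees arachidonic acid from membranes and had 8.27 and 9.37 FPKM in control cells and 13.5 and 13.9 FPKM with IL-4 (log2 difference 0.58, adjusted p = 0.0403). It was called in 0 of the 8 fits that left out 1 library. Ptgs1, cyclooxygenase 1, had 13.9 and 4.83 FPKM in control cells and 67.3 and 31.7 FPKM with IL-4 (log2 difference 2.34, adjusted p = 0.0106). Tbxas1, thromboxane synthase, had 68.5 and 40.4 FPKM in control cells and 167 and 90.9 FPKM with IL-4 (log2 difference 1.21, adjusted p = 0.01505). In all 3 both IL-4 libraries lay above both controls. Ptgs2, the inducible cyclooxygenase, differed by 0.12 and the leukotriene genes Alox5 and Alox5ap by -0.57 and -0.67 on the log2 scale, none past the threshold.

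**Figure D4:**
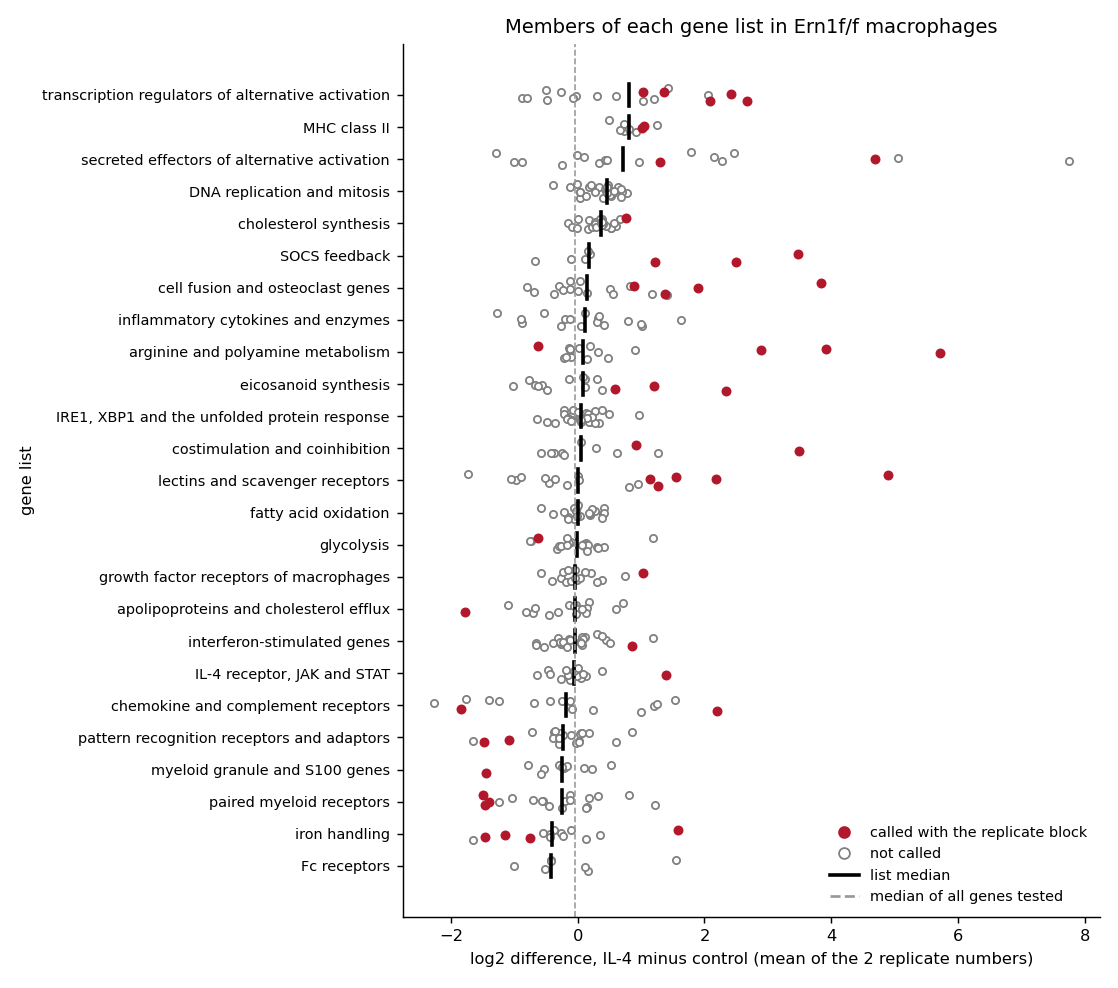
Each point is a tested gene of the list named at the left, placed by its mean log2(FPKM + 1) difference, IL-4 minus control, over the 2 replicate numbers; filled points were called with the replicate block, black bars are list medians and the dashed line is the median of all genes tested. Lists on transcription regulators and MHC class II have the highest medians, while most lists hold called genes in only 1 direction.

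Several lists held no called gene, or 1, by limma with the replicate block. Among all genes tested 2.12% were called, and in lists this short such counts do not set the members apart. Higher in both replicate numbers were 24.1% of all genes tested, and lower in both 37.1%. Among 17 inflammatory cytokine and enzyme genes 0 passed; 7 were higher and 6 lower in both replicate numbers, and the median was 0.12. Tnf had 12.6 and 53.9 FPKM in control cells and 10.04 and 31.3 FPKM with IL-4 and Il1b 6.63 and 5.06 FPKM in control cells and 7.301 and 5.04 FPKM with IL-4 (adjusted p = 0.442 and 0.983), while the monocyte attractants Ccl2 and Ccl7 had 9.99 and 61.7 FPKM in control cells and 23.99 and 109 FPKM with IL-4 and 13.5 and 33.3 FPKM in control cells and 28.3 and 161 FPKM with IL-4 (adjusted p = 0.277 and 0.105). Of 28 DNA replication and mitosis genes 0 passed, 19 were higher and 1 lower in both numbers, and the median was 0.46 (0.24 in replicate 1, 0.54 in replicate 2). Pcna, the sliding clamp of DNA polymerases, had 227 and 205 FPKM in control cells and 349 and 344 FPKM with IL-4 (adjusted p = 0.0848), and Mcm5, a subunit of the replicative helicase, 11.9 and 8.47 FPKM in control cells and 23.5 and 13.8 FPKM with IL-4 (adjusted p = 0.0897). Of 28 genes of the unfolded protein response 0 passed and the median was 0.06. Ern1 itself had a log2 difference of -0.11 (adjusted p = 0.831). Xbp1, whose transcript IRE1α splices, had 40.5 and 46.3 FPKM in control cells and 46.1 and 42.7 FPKM with IL-4, and neither form can be told apart at gene level. The disulfide isomerase gene Pdia4 had the largest difference of that list, 25.9 and 32.5 FPKM in control cells and 53.2 and 62.4 FPKM with IL-4 (adjusted p = 0.0683). Of 24 interferon-stimulated genes 1 passed, the transcription factor gene Irf1, at 29.2 and 33.5 FPKM in control cells and 50.5 and 65.3 FPKM with IL-4 (adjusted p = 0.0258). Of 20 glycolysis genes 1 passed, the phosphofructokinase gene Pfkl, at 16.9 and 19.2 FPKM in control cells and 10.6 and 11.9 FPKM with IL-4 (adjusted p = 0.0447).

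The most abundant called genes included further macrophage proteins. Lgals3, galectin-3, which IL-4-treated macrophages are known to secrete, had 3083 and 2332 FPKM in control cells and 6351 and 3739 FPKM with IL-4 (adjusted p = 0.0323). Anxa1, an annexin that dampens inflammation, had 478 and 414 FPKM in control cells and 934 and 851 FPKM with IL-4, and Ap2m1, a clathrin adaptor subunit, 191 and 264 FPKM in control cells and 510.2 and 447 FPKM with IL-4 (adjusted p = 0.0321 and 0.0311). Falling genes of high level were Lst1, a transmembrane adaptor of myeloid cells, at 708 and 1266 FPKM in control cells and 292 and 616 FPKM with IL-4, and Ifitm2, an interferon-induced membrane protein, at 547 and 731 FPKM in control cells and 294 and 465 FPKM with IL-4 (adjusted p = 0.0121 and 0.0289). Coro1a, an actin-binding protein of leukocytes, had 178 and 273 FPKM in control cells and 97.9 and 124 FPKM with IL-4, and Msrb1, a methionine sulfoxide reductase, 198 and 234 FPKM in control cells and 76.01 and 119 FPKM with IL-4 (adjusted p = 0.0151 and 0.0354). The myeloid gene Lyz2, lysozyme, was among the most abundant of all, lower with IL-4 within each number and far from the threshold (adjusted p = 0.635). Both Ern1f/f IL-4 libraries lay below both controls. The spread in this test comes from all 8 libraries, and the Cre controls differed widely between the numbers, at 10949 and 2171 FPKM. S100a8, a calcium-binding protein of neutrophils and monocytes, fell from 20.8 and 33.1 to 5.84 and 13.6 FPKM (adjusted p = 0.0354). The neutrophil marker list, which holds S100a8, summed to 21.5 and 40.2 FPKM in control cells and 6.43 and 20.04 FPKM with IL-4. S100a8 itself made up most of each sum, so the sums are not a separate measure of neutrophils. The part of neutrophils in this result was not tested. The remaining genes with the largest falls were Gpx3, an extracellular glutathione peroxidase, at 99.1 and 73.1 FPKM in control cells and 29.7 and 40.5 FPKM with IL-4, Sorbs3, an adhesion adaptor, at 12.4 and 9.05 FPKM in control cells and 3.47 and 3.96 FPKM with IL-4, Lrrc14b at 14.5 and 6.18 FPKM in control cells and 4.28 and 2.45 FPKM with IL-4 and LOC100038947 at 10.6 and 17.9 FPKM in control cells and 3.46 and 6.502 FPKM with IL-4.

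Whether IL-4 acted differently in the 2 replicate numbers cannot be tested within Ern1f/f cells, where each number has 1 library per treatment. The test took both genotypes together, with terms for genotype and for its effect on the response, and 15 of 10934 genes passed. In 6 of them the value was larger in replicate 2 and in 9 smaller. These p-values measure only the spread left after steady genotype differences are removed, which is how far those differences changed between the numbers. The labels do not say what a number marks. Chi3l3 stood out, with a difference of -6.09 log2 units, replicate 2 minus replicate 1 (adjusted p = 0.000186). Batf3, a transcription factor of dendritic cells, had 3.13 and 16.2 FPKM in control cells and 41.9 and 27.8 FPKM with IL-4 (-2.72, adjusted p = 0.0208). Ccl17, a CCR4 ligand, was listed at 0 in both controls and at 8.46 and 1.06 FPKM with IL-4, about 83 and 10 fragments (-2.26, adjusted p = 0.0187). In the other direction Fn1, fibronectin, went from 60.7 to 43.2 FPKM in replicate 1 and from 3.46 to 22.8 FPKM in replicate 2 (3.45, adjusted p = 0.0216). Serpina3g, a protease inhibitor, had 1.03 and 2.88 FPKM in control cells and 3.61 and 35.01 FPKM with IL-4 (2.18, adjusted p = 0.0109). The fibroblast marker Col1a1, a collagen chain, stood at 65.01 and 2.59 FPKM in control cells and 31.1 and 2.21 FPKM with IL-4, and its part in the difference of Fn1 was not tested.

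**Figure D5:**
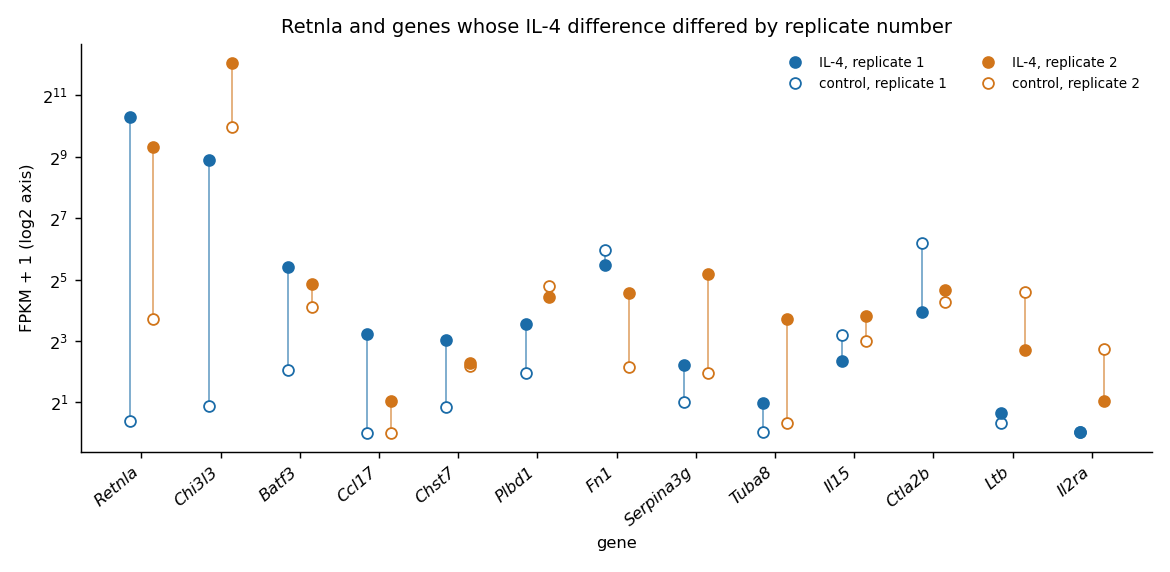
Levels as FPKM + 1 on a log2 axis of Retnla and of the 12 protein-coding genes whose IL-4 difference differed between the replicate numbers; open circles are control and filled circles IL-4 libraries, blue for replicate 1 and orange for replicate 2. Chi3l3 control cells sat at 0.844 FPKM in replicate 1 and 999 FPKM in replicate 2, and Fn1 differed in direction between the numbers.

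No single gene passed a test of whether its response differed in the libraries titled Ern1f/fLyz2-Cre, whose genotype the Ern1 level did not check and whose Lyz2 level was lower at each treatment and replicate number. The test of the difference between the 2 responses called 0 of 10934 genes by limma, with the block or without it. An unadjusted p under 0.05 was met by 103 and 19 genes, where chance gives 546.7. With fewer than chance gives, the 0 calls say little about whether the responses differed. Of the 138 genes that rose in Ern1f/f cells 137 were also higher in both replicate numbers of the libraries titled Cre, and all 94 that fell were lower in both. The 2 differences share no libraries, but the calls take their spread from all 8 libraries. A call thus favours genes whose 2 differences in the libraries titled Cre are alike, so these counts are not an independent check. The same share over all genes tested was not counted. The exception was H2-L, a class I histocompatibility gene, which had 249 and 2.02 FPKM in control cells and 476 and 4.98 FPKM with IL-4 but 215 and 1.13 FPKM in Cre control cells and 143 and 0.4599 FPKM with IL-4. Its level differed far more between the replicate numbers than with IL-4 in both genotypes, and class I genes share sequence. For the 5 genes called in every fit that left out 1 library, the difference of the response in libraries titled Cre minus that in Ern1f/f had these 95% intervals with the block: -0.54 to 1.002 for Arg1, -0.72 to 0.46 for Apol7c, -1.002 to 0.75 for Il4i1, -0.61 to 0.74 for Pdcd1lg2 and -0.21 to 0.64 for Cish. A p that misses the threshold does not show that the genotypes responded alike.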

How the data were processed

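RNA from 8 libraries of bone marrow-derived macrophages was measured, and the 4 titled Ern1f/f are described. The authors deposited FPKM per gene with a confidence interval and a status; reads were aligned with TopHat 1.4.1 and quantified with Cufflinks 1.3.0 to mm10, per the submitters' processing notes. The gene models and strandedness are not given in the sources used here, so overlapping antisense genes cannot be told apart. Rows that share a symbol were summed, and 10934 genes that reached 1 FPKM in 2 or more of the 8 libraries were tested. limma 3.58.1 (R 4.3.3) was run on log2(FPKM + 1) over all 8 libraries with 4 group means, a trended prior and Benjamini-Hochberg adjustment, without and with the replicate number as a block. Fragments behind a value were recovered from the width of its interval, and only describe depth.

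The replicate 2 minus replicate 1 differences of the 4 groups correlated at 0.69 to 0.83 over the 6 pairs of groups, so same-numbered libraries were treated as paired and blocked values are given throughout. The labels do not say what the number marks. Tested on simulated data for the IL-4 comparison in Ern1f/f cells, with 200 of 10934 genes changed, the blocked fit recovered 129 at a log2 change of 1 with 7 false calls and 188 at a change of 2 with 12. Without the block it recovered 0 and 151, with 0 and 1 false calls. The simulation gave all 4 groups the same replicate shift and normal noise with the spread of the blocked fit. That setting favours the block in advance, whereas the real shifts correlated at 0.69 to 0.83. These counts therefore cannot show that the block suits the data.

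Genes named were the 12 higher and the 12 lower called genes with the largest difference, a mean FPKM of 1 or more and groups that do not overlap, and the 5 most abundant called genes in each direction. Added were up to 4 called members of each list, genes under 1 FPKM in both controls and at 5 or more in both IL-4 libraries, 6 genes with opposite differences, and 10 genes of interest. Further genes were chosen after their values were seen. The members and lists were chosen with earlier results of these data known. Alternatives covered the block, pseudocount, low-value filter, library scaling, variance trend, how rows are joined, the genotype field and each library left out.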

Additional observations from a re-analysis of the deposited data

Results flagged for a closer look

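The IL-4 difference of 15 genes differed between the replicate numbers, tested over both genotypes. As replicate 2 minus replicate 1 on the log2 scale it was -6.09 for Chi3l3, -2.72 for Batf3, -2.26 for Ccl17, -1.97 for Plbd1, -1.95 for Ltb, -1.89 for Chst7 and -1.79 for Il2ra. It was 3.45 for Fn1, 2.698 for Tuba8, 2.36 for Ctla2b, 2.18 for Serpina3g and 1.48 for Il15. Il15, a lymphocyte growth factor, went from 8.14 to 4.11 FPKM in replicate 1 and from 7.01 to 13.004 FPKM in replicate 2 of Ern1f/f cells. Ltb and Il2ra, genes best known from lymphocytes, were read almost only in replicate 2, from 23.3 to 5.56 and from 5.68 to 1.05 FPKM. In those 2 libraries T or NK cell markers summed to 1.88 and 3.41 FPKM, B cell markers to 19.2 and 12.5 FPKM, and dendritic cell markers to 706 and 457 FPKM. In replicate 1 the B cell markers summed to 13.6 and 14.2 FPKM and the dendritic cell markers to 260 and 213 FPKM. Of the 8 dendritic cell markers 1 was expressed highly enough to be tested. The dendritic cell sums thus rest mostly on 1 gene and not on the list as a whole. The part of such cells in the values of Ltb and Il2ra was not tested.

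The small RNA genes Mir223 (7.597), Snora15 (-6.45) and Snora17 (-4.18) passed the same test. Mir223 was listed at 207 FPKM in control replicate 1, which is about 1 fragment, and at 0 in the other 3 Ern1f/f libraries. Snora15 and Snora17 were listed at 66.2 and 15.9 FPKM in IL-4 replicate 1, about 2 fragments and 1 fragment.

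H2-L was higher with IL-4 in both replicate numbers of Ern1f/f cells (0.93 and 0.99) and lower in both of Ern1f/fLyz2-Cre cells, with a mean log2 difference of -0.56 (-0.58 and -0.54). The difference between the genotypes had an adjusted p of 0.9999 in the blocked fit.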

How the results depend on the processing

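The count of called genes rests on the replicate block: 0 without it and 232 with it. Without the block the count was 11 after rescaling the libraries, 2264 with groups from the genotype field, which makes the 4 libraries numbered 1 Ern1f/f and allows no block, and 0 to 1 when 1 library was left out. With the block it was 3 with no filter on low values, which adds genes near 0 to the test, and 6 to 277 when 1 library was left out; a group left with 1 library was assumed to vary like the others. Pseudocounts of 0.1 and 5, the stricter filter, rescaling, 1 row per symbol, the status filter, no trend and only the 4 Ern1f/f libraries gave 195 to 280. The 129 genes at least 1 log2 unit apart in both numbers became 235 and 55 with pseudocounts of 0.1 and 5, and the 15 genes that differed between the numbers became 35 with a pseudocount of 5 and 1 with no filter. The interaction count was 0 under each alternative run. Of the 127 named genes with a difference, 81 lost their call without the block. Under single libraries left out with the block, the log2 difference changed sign for 12 genes, none of them called: its range was -1.78 to 0.58 for Col1a1, -1.12 to 2.40 for Cyp1b1, -0.27 to 0.047 for Ern1, -0.995 to 1.465 for Hist1h4a, -0.77 to 1.68 for Hist1h4d and -0.46 to 0.58 for Il1b. For Jak1 it was -0.028 to 0.145, for Lyz2 -1.71 to 0.14, for Mir546 -6.73 to 3.57, for Rpl34-ps1 -1.44 to 0.97, for Snora70 -5.33 to 3.55 and for Xbp1 -0.14 to 0.21. With a library left out, the replicate shift is taken from the groups that keep both libraries. For Lyz2 both Ern1f/f IL-4 libraries lay below both controls, so its change of sign comes from the shift in the libraries titled Cre. Genes with few fragments are limited by depth, as the small RNA genes at 1 or 2 fragments show.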

Other observations

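The genes that rose also include Sdc4, the heparan sulfate proteoglycan syndecan-4, with 26.04 and 23.7 FPKM in control cells and 93.7 and 65.9 FPKM with IL-4 (log2 difference 1.62, adjusted p = 0.00604), and F10, coagulation factor X, with 5.64 and 8.65 FPKM in control cells and 41.6 and 28.5 FPKM with IL-4 (log2 difference 2.15, adjusted p = 0.0162). Plxdc2, a plexin domain membrane protein, had 10.5 and 8.81 FPKM in control cells and 64.5 and 41.1 FPKM with IL-4, and Tarm1, an activating receptor of myeloid cells, 0.389 and 2.35 FPKM in control cells and 11.3 and 14.2 FPKM with IL-4 (adjusted p = 0.00449 and 0.0155). Dusp4, a phosphatase of MAP kinases, had 8.68 and 8.07 FPKM in control cells and 35.5 and 24.4 FPKM with IL-4, and Smap2, which acts on ARF1 in vesicle traffic, 33.8 and 36.2 FPKM in control cells and 123 and 95.6 FPKM with IL-4 (adjusted p = 0.00605 and 0.007096). Fchsd2, an actin regulator, had 8.08 and 9.04 FPKM in control cells and 24.98 and 28.6 FPKM with IL-4, with ratios of 3.09 and 3.16 that were nearly level between the numbers (adjusted p = 0.00449). Csf2rb, the beta chain shared by the receptors for GM-CSF, IL-3 and IL-5, had 89.8 and 94.5 FPKM in control cells and 204 and 175 FPKM with IL-4 (adjusted p = 0.0151) and was the 1 called of 17 tested growth factor receptor genes, and the CCR1 ligands Ccl6 and Ccl9 had 83.8 and 81.6 FPKM in control cells and 139.8 and 186 FPKM with IL-4 and 59.1 and 51.7 FPKM in control cells and 174 and 110.5 FPKM with IL-4 (adjusted p = 0.0303 and 0.0151).

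Genes that fell, beside those given above, include the following. Gadd45a, a stress-induced growth arrest gene, had 49.8 and 23.5 FPKM in control cells and 18.8 and 10.2 FPKM with IL-4, and Cdkn1c, the cell cycle inhibitor p57, 75.3 and 8.52 FPKM in control cells and 24.9 and 3.96 FPKM with IL-4 (adjusted p = 0.00721 and 0.0354). Cebpd, a transcription factor of the acute phase response, had 13.7 and 26.1 FPKM in control cells and 6.59 and 9.32 FPKM with IL-4, and Ebi3, the shared subunit of IL-27 and IL-35, 59.2 and 178 FPKM in control cells and 31.9 and 70.2 FPKM with IL-4 (adjusted p = 0.0151 and 0.0258). Cd5l, a secreted protein that inhibits apoptosis in macrophages, had 42.6 and 122 FPKM in control cells and 15.4 and 48.4 FPKM with IL-4 (adjusted p = 0.0109). Ifitm6, a relative of Ifitm2, had 3.99 and 26.2 FPKM in control cells and 0.553 and 6.97 FPKM with IL-4, with a log2 difference of -1.68 in replicate 1 and -1.77 in replicate 2 despite a level several times higher in replicate 2 (adjusted p = 0.00653). Saa3, an acute phase protein, had 456 and 2214 FPKM in control cells and 305 and 959 FPKM with IL-4 and did not pass (adjusted p = 0.141). All genes of both paragraphs were chosen after their values were seen.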
